A study of Mus musculus with 10 samples.

Results

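The genes described here are the core of the Notch pathway as it is usually listed for solid tumors and their vessels: the receptor genes Notch1, Notch2, Notch3 and Notch4, the ligand genes Jag1, Jag2, Dll1 and Dll4, and the effector genes Hes1 and Hey1. They were taken by name from the deposited table, and all 10 were found among its 17864 genes. Each had enough counts to be tested with the 14816 genes that passed the filter on low counts.

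RNA-seq was performed on whole tumors of 4T1, a mammary carcinoma line of BALB/c mouse origin used as a model of triple-negative breast cancer. The cells of both groups carried Cas9, with either a control guide RNA (sgCon, 5 tumors) or a guide RNA against Wwtr1, the gene of the Hippo pathway transducer TAZ (sgTaz, 5 tumors). In the methods, cells were injected into a mammary fat pad of female mice aged 6 to 8 weeks, and the host strain of the sequenced tumors, BALB/c or SCID, is not given in the sources used here. A single sgTaz target sequence is described, and whether the edited cells were a clone or a pool is likewise not given. Cas9 edited the injected cells, not the host cells of the tumors, although the labels call the cell type tumor cell. RNA of both was measured together, so fewer cells of a type and less RNA per cell cannot be told apart in any result given here.

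Notch receptors are membrane proteins that are activated by Jagged and Delta-like ligands on a neighboring cell. A metalloprotease and then gamma-secretase cut the bound receptor, and its intracellular domain enters the nucleus, where it joins the DNA-binding protein RBPJ and the Mastermind coactivators to switch on genes such as those of the HES and HEY repressors. In blood vessels Dll4, Notch1, Notch4 and Hey1 act in sprouting and arterial identity, Notch3 is the receptor of mural cells, and Jag1 and Jag2 are also made by carcinoma cells.

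Promoter sequences were searched for the DNA words of this pathway and of TEAD, the DNA-binding partner of TAZ, because the members could then be set beside each other by sequence as well as by level. RefSeq (GRCm38.p6) gave promoters, from 250 bases before to 50 after the start, for 8 of the 10 genes, with 2 for Dll1. Hes1 and Hey1 were not matched. The words searched on both strands were TGGGAA, the core of RBPJ sites, GGAATG, the core of TEAD sites, and CACGNG, a site of HES and HEY factors. The first and second words share the letters GGAA and can overlap.

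No member promoter held the RBPJ core, which is in 25.6% of 32851 RefSeq promoters. The TEAD core, in 14.7% of all promoters, was found in those of Notch1 and Notch4, with 2 matches in Notch1. The HES and HEY word, in 27.5% of all promoters, was found in those of Notch2, Notch3, Jag1, Jag2, Dll4 and both of Dll1. The windows around the matches of the ligands with the largest fold changes, Jag2 and Dll1, and of the vessel genes Notch4, Notch1 and Dll4 are printed here on the strand of the gene, with the matched word in capitals (CATTCC is the TEAD core read on the other strand). They are, in this order, at chr12:112929460-112929489 (minus), chr17:15375911-15375940 (minus), chr17:15376983-15377012 (minus), chr17:34564056-34564085 (plus), chr2:26504038-26504067 (minus) and chr2:119325577-119325606 (plus) of GRCm38.
Jag2: cggcgatgcgggCACGCGgctggggacgcc
Dll1, first promoter: accagggcaggtCACGGGagagcaccggtg
Dll1, second promoter: cttaatgacagcCACGCGaacgacacacac
Notch4: gggtcacagtagCATTCCcttgccactccc
Notch1: ttcctagatgccCATTCCatacacccctcc
Dll4: ctgctcgccgggCACGCGcagagctggaag
A match describes the letters in a window only, and binding was not measured in this series.

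The sgCon tumors had 14753922 to 19595821 counts in total, and the sgTaz tumors 12185383 to 18395558. Levels are given as CPM (the count of a gene divided by the tumor's total, on a fixed scale), scaled by the TMM factors of edgeR, which were between 0.972 and 1.021. The targeted gene, Wwtr1, was at 192, 181, 115, 171 and 156 CPM in sgCon tumors 1 to 5 and at 86.6, 104, 110, 139 and 102 CPM in sgTaz tumors 1 to 5. Only sgCon tumor 3 and sgTaz tumor 4 crossed over. The means were 163 CPM ± 30.2 (SD, n = 5) and 108 CPM ± 19.2 (SD, n = 5) (log2 fold change -0.59, SE 0.151, edgeR adjusted p = 0.096, DESeq2 adjusted p = 0.0149). Small edits by Cas9 need not lower the RNA of a gene. Lymphoid marker RNA varied widely: the summed level of 9 B cell markers was 72.9 to 988 CPM in sgCon and 7.56 to 230 CPM in sgTaz tumors, highest in sgCon tumor 3 and, among sgTaz tumors, in tumor 5. These ranges overlapped only through sgTaz tumor 5, with sgTaz tumors 1 to 4 at 7.89, 7.56, 22.5 and 12.3 CPM. The medians were 231 CPM in sgCon and 12.3 CPM in sgTaz tumors. Of the 9 markers, 0 were called by edgeR or DESeq2, with 7 lower at an unadjusted p below 0.05 by edgeR, against 21.8% of all genes in either direction. The 8 T cell markers summed to 84.9 to 650 CPM in sgCon and 56 to 174 CPM in sgTaz tumors. All 8 were lower at an unadjusted p below 0.05 by edgeR, and DESeq2 called 2 lower, against 6.87% of all genes.

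Of the Notch genes themselves, Jag2 and Dll1 had lower mean levels in sgTaz tumors, and the other 8 differed between group means by less than the spread between tumors. Under the main test, edgeR's quasi-likelihood test with Benjamini-Hochberg adjustment over 14816 genes, 0 of the 10 had an adjusted p below 0.05, against 0.00675% of all genes tested (1 gene). At an unadjusted p below 0.05 the same test took 1 of the 10, Jag2, against 21.8% of all genes. DESeq2, the tool of the study, called Jag2 (1 of 10, against 6.87% of all genes with an adjusted p), and limma-voom with sample quality weights called Jag2 and Dll1 (2 of 10, against 10.4%). Jag2 and Dll1 were also the members with at least 4 of 5 sgTaz tumors below every sgCon tumor, a pattern seen in 9.43% of all genes, and for no member were the groups fully apart, as they were for 4.57% of all genes. The median log2 fold change of the 10 genes was 0.004, against -0.019 over all genes tested, and their median absolute log2 fold change was 0.0583, against 0.176.

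**Figure D1:**
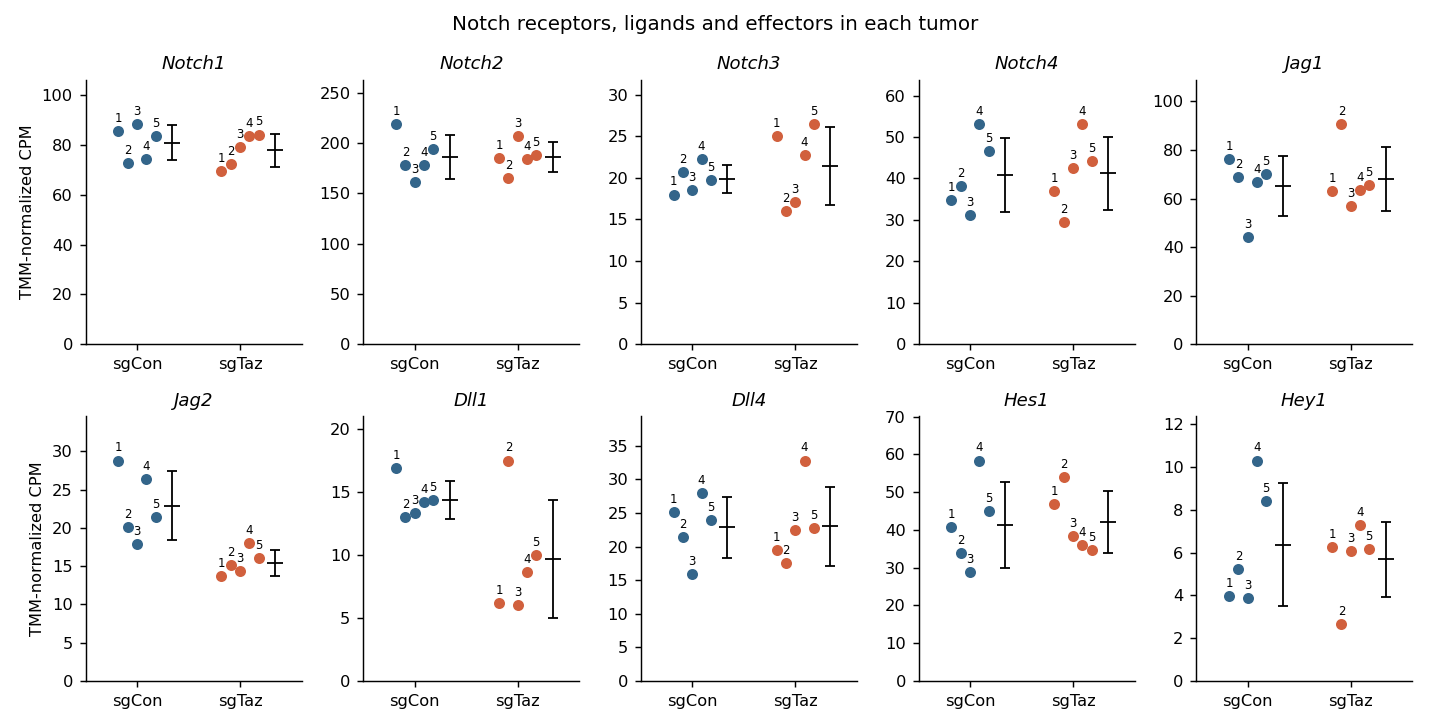
TMM-normalized CPM (vertical axes, each from 0) of the 10 Notch genes in each of 5 sgCon and 5 sgTaz tumors, with replicate numbers beside the points and the mean ± SD at the right of each group. In Jag2 all sgTaz points but tumor 4 lie below every sgCon point, and in Dll1 all but tumor 2 do. In Notch3 the sgTaz points lie above or below all sgCon points, and in the other panels the groups overlap broadly.

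Jag2, a Jagged ligand with a long extracellular part like that of Jag1 (ENSMUSG00000002799.6, minus strand of chromosome 12 from 112907819 to 112929776 in mm10), was at 28.8, 20.1, 17.9, 26.4 and 21.4 CPM in sgCon tumors 1 to 5. In sgTaz tumors 1 to 5 it was at 13.7, 15.2, 14.3, 18 and 16.0 CPM, from 216 to 267 counts each. The highest sgTaz tumor, tumor 4, lay just above the lowest sgCon tumor, tumor 3, and this was the only overlap. The means were 22.9 CPM ± 4.54 (SD, n = 5) and 15.5 CPM ± 1.68 (SD, n = 5). The log2 fold change by edgeR was -0.57 (SE 0.142, 95% interval -0.88 to -0.26, adjusted p = 0.096), and a two-sided exact permutation test over the tumors gave p = 0.0159. By DESeq2 the log2 fold change was -0.56 (adjusted p = 0.0146), and by limma-voom with quality weights -0.54 (adjusted p = 0.0295). When single tumors were left out, the edgeR log2 fold change stayed between -0.64 and -0.47. The DESeq2 adjusted p was between 0.00293 and 0.0784 over these 10 fits and below 0.05 in 8, the exceptions being the fits without sgTaz tumor 1 and without sgTaz tumor 3.

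Dll1, a Delta-like ligand (ENSMUSG00000014773.13, minus strand of chromosome 17 from 15367354 to 15376872), was evenly expressed in sgCon tumors, at 16.9, 13.0, 13.3, 14.2 and 14.4 CPM. In sgTaz tumors 1 to 5 it was at 6.17, 17.5, 6.0, 8.66 and 9.97 CPM. Tumor 2 was thus above every sgCon tumor and the other 4 were below every sgCon tumor. The means were 14.3 CPM ± 1.53 (SD, n = 5) and 9.66 CPM ± 4.69 (SD, n = 5), with an edgeR log2 fold change of -0.57 (SE 0.266, 95% interval -1.15 to 0.01, adjusted p = 0.238). The exact permutation test gave p = 0.0556. DESeq2 gave an adjusted p of 0.2, and limma-voom with quality weights a log2 fold change of -0.87 with an adjusted p of 0.0296. These weights are fitted from the counts, and no quality of the RNA was measured for them. Without weights, limma-voom gave a log2 fold change of -0.70 (adjusted p = 0.159). The result depended on the tumors kept. Without sgTaz tumor 2, the log2 fold change by edgeR was -0.90 (adjusted p = 0.0534) and DESeq2 gave an adjusted p of 0.000239. Over all 10 fits with a single tumor left out, the edgeR log2 fold change was between -0.90 and -0.44, with adjusted p from 0.0534 to 0.428. The DESeq2 adjusted p was between 0.000239 and 0.448 over these fits and below 0.05 only in the fit without sgTaz tumor 2. Of the exon bases of Dll1, 867 are shared with a transcript on the opposite strand, A930024N18Rik, and reads of both cannot be told apart if the counting ignored the strand. The same holds for 1482 exon bases of Notch1, 488 of Notch3 and 214 of Dll4, and Notch2 shares 541 with Gm42820 on its own strand.

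Jag1, the more abundant Jagged ligand (ENSMUSG00000027276.7, chromosome 2 from 137081456 to 137116644, minus strand), was at 76.4, 68.8, 44.0, 66.8 and 70.1 CPM in sgCon tumors. In sgTaz tumors it was at 63.2, 90.8, 57.0, 63.5 and 65.6 CPM. The lowest value was that of sgCon tumor 3 and the highest that of sgTaz tumor 2, and the rest of the groups overlapped. The log2 fold change was 0.06 (SE 0.158, 95% interval -0.29 to 0.41, edgeR adjusted p = 0.854). Its sign turned when either of those tumors was left out.

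Dll4, the Delta-like ligand of sprouting endothelium (ENSMUSG00000027314.6, chromosome 2 from 119325784 to 119335962, plus strand), was at 25.1, 21.4, 15.9, 27.9 and 23.9 CPM in sgCon and at 19.5, 17.6, 22.5, 32.8 and 22.7 CPM in sgTaz tumors. The groups overlapped over nearly the whole range, with the highest value in sgTaz tumor 4. The log2 fold change was 0.01 (SE 0.186, 95% interval -0.40 to 0.42, edgeR adjusted p = 0.984).

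**Figure D2:**
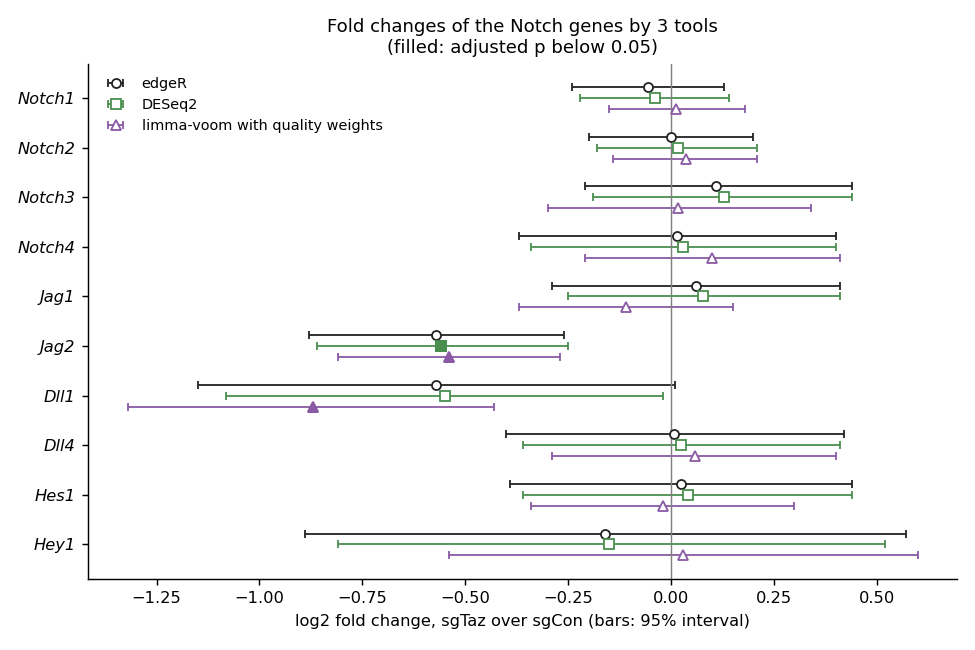
Log2 fold change (horizontal axis, sgTaz over sgCon, bars 95% intervals) of the 10 Notch genes by edgeR, DESeq2 and limma-voom with quality weights, with filled symbols for an adjusted p below 0.05. Jag2 is filled for DESeq2 and limma-voom, Dll1 for limma-voom, and the intervals of the other 8 genes all include 0.

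No receptor gene passed the test, and in all 4 the ranges of the groups overlapped. Notch1 (ENSMUSG00000026923.15, chromosome 2 from 26457903 to 26516663, minus strand), a receptor of endothelium, lymphocytes and many epithelia, was at 85.8, 72.8, 88.5, 74.2 and 83.5 CPM in sgCon and at 69.4, 72.5, 79.3, 83.7 and 84.2 CPM in sgTaz tumors. The values overlapped, and the log2 fold change was -0.06 (SE 0.0837, 95% interval -0.24 to 0.13, edgeR adjusted p = 0.722). Notch2 (ENSMUSG00000027878.11, chromosome 3 from 98013527 to 98150361, plus strand), which is widely expressed and also needed by marginal zone B cells, was at 219, 178, 161, 178 and 194 CPM in sgCon and at 185, 165, 207, 184 and 188 CPM in sgTaz tumors. Both means were 186 CPM (SD 22 and 14.9, n = 5 each), and the 95% interval of the log2 fold change ran from -0.20 to 0.20.

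Notch3 (ENSMUSG00000038146.8, chromosome 17 from 32120820 to 32166852, minus strand), the receptor of mural cells, was at 18, 20.7, 18.5, 22.3 and 19.8 CPM in sgCon and at 25.0, 16.0, 17.1, 22.7 and 26.5 CPM in sgTaz tumors. The sgTaz values spread to both sides of the sgCon values, with 3 tumors above and 2 below all of them, and the SD was 4.7 against 1.75 CPM. The log2 fold change was 0.11 (SE 0.149, 95% interval -0.21 to 0.44, edgeR adjusted p = 0.69). The difference in spread was not tested. Notch4 (ENSMUSG00000015468.14, chromosome 17 from 34564268 to 34588503, plus strand), a receptor largely of endothelial cells, was at 34.9, 38.3, 31.1, 53.1 and 46.7 CPM in sgCon and at 36.9, 29.4, 42.5, 53.2 and 44.2 CPM in sgTaz tumors. It varied widely from tumor to tumor in both groups, and the group means of 40.8 CPM ± 8.96 and 41.2 CPM ± 8.82 (SD, n = 5 each) were nearly equal (log2 fold change 0.01, SE 0.176, 95% interval -0.37 to 0.40, edgeR adjusted p = 0.973).

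The effectors did not separate the groups either. Hes1, a repressor that Notch induces in many cell types (ENSMUSG00000022528.8, chromosome 16 from 30064384 to 30067796, plus strand), was at 40.8, 33.8, 28.8, 58.4 and 44.9 CPM in sgCon and at 47.0, 54.1, 38.5, 36.1 and 34.6 CPM in sgTaz tumors. Its highest and lowest values were both in sgCon tumors, 4 and 3, and the log2 fold change was 0.03 (SE 0.19, 95% interval -0.39 to 0.44, edgeR adjusted p = 0.951). Hey1, the effector of arterial endothelium (ENSMUSG00000040289.8, chromosome 3 from 8663359 to 8667256, minus strand), was the member with the fewest counts, 41 to 185 per tumor. It was at 3.96, 5.21, 3.87, 10.3 and 8.42 CPM in sgCon and at 6.24, 2.65, 6.05, 7.28 and 6.18 CPM in sgTaz tumors. The sgCon tumors were split between low and high values, sgTaz tumor 2 was the lowest of all, and the log2 fold change of -0.16 (SE 0.333, 95% interval -0.89 to 0.57, edgeR adjusted p = 0.808) is the least precise of the 10.

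Set on a scale that allows genes to be compared, CPM per kilobase of annotated exons, Hes1 and Notch2 led the list. Over the 10 tumors the mean level per kilobase was 20.5 ± 4.62 (SD) for Hes1, 17.2 ± 1.64 for Notch2 and 11.4 ± 2.08 for Jag1. Then followed Dll4 at 5.95 ± 1.28, Notch1 at 5.58 ± 0.469 and Notch4 at 5.09 ± 1.04 CPM per kilobase. The lowest were Dll1 at 2.84 ± 0.975, Jag2 at 2.76 ± 0.732, Notch3 at 2.55 ± 0.427 and Hey1 at 1.84 ± 0.695 CPM per kilobase. Jag1 was above Dll4 in 10 of 10 tumors, and Notch2 was above Jag1, and Notch4 above Dll1, in 9 of 10. Other neighbors changed places between tumors: Hes1 was above Notch2 in 6, Dll4 above Notch1 in 7, Dll1 above Jag2 in 5 and Jag2 above Notch3 in 6 of 10 tumors. Notch1 over Notch4, and Notch3 over Hey1, held in 8 of 10. Among the receptors the highest mean was 6.75 times the lowest, and among the ligands 4.15 times. This order depends on the length used: per kilobase of the longest transcript, Notch1 (8.37 CPM) was above Dll4 (6.12 CPM) in 10 of 10 tumors, Jag2 (3.76 CPM) above Dll1 (3.35 CPM) in 8 and Hes1 above Notch2 in 10.

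The make-up of the receptors and of the ligands was compared as each gene's share of its family per kilobase, which does not depend on the scaling between tumors. The receptor shares differed little: Notch2 made up 56.5% ± 3.3 in sgCon and 56.7% ± 3.02 in sgTaz tumors, Notch1 18.8% and 18%, Notch4 16.6% and 16.7%, and Notch3 8.09% and 8.7% (two-sided exact permutation tests, p between 0.5 and 0.992). Among the ligands, the share of Jag2 was 14.9, 12.4, 14.8, 14.7 and 12.4% in sgCon tumors and 10.2, 8.23, 10.8, 10.8 and 10.5% in sgTaz tumors. Here the groups did not overlap, the means were 13.8% ± 1.3 and 10.1% ± 1.07 (SD, n = 5 each), and the exact permutation p was 0.00794, the smallest that 5 against 5 tumors can give. Adjusted over the 8 shares tested, this exact p was 0.0635. The share of Dll1 was 14.5% ± 2.12 (SD, n = 5) in sgCon tumors and differed by -4.49 percentage points in sgTaz tumors (SD 3.44, n = 5, exact p = 0.0476, adjusted 0.169), with sgTaz tumor 2 at 15.7% and the other 4 between 7.45% and 10.8%. The share of Jag1 was 46.9% ± 2.99 and 52.6% ± 5.18 (exact p = 0.0635, adjusted 0.169), and that of Dll4 24.8% ± 1.88 and 27.3% ± 6.69 (exact p = 0.46, adjusted 0.8).

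**Figure D3:**
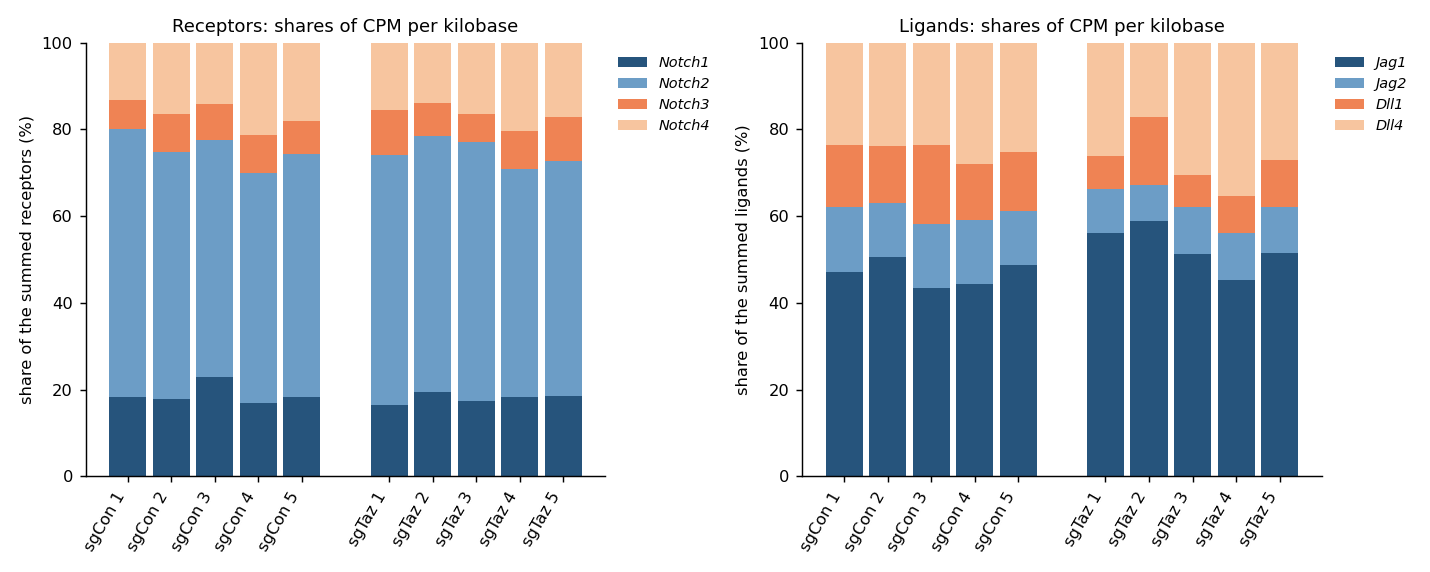
Share of each receptor (left) and ligand (right) in the summed CPM per kilobase of its family (vertical axes, percent), with a bar for each tumor. The Jag2 band is narrower in every sgTaz tumor (8.23 to 10.8%) than in any sgCon tumor (12.4 to 14.9%).

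Because whole tumors hold many cell types, the members were set beside lists of marker genes. The 10 markers of epithelial tumor cells (keratins, Epcam, Cdh1 and claudins) summed to a lowest, median and highest level of 2270, 3220 and 5140 CPM in sgCon and of 1640, 2130 and 3980 CPM in sgTaz tumors. All 10 had a fitted log2 fold change below 0 (median -0.62). At an unadjusted p below 0.05 by edgeR 5 were lower, against 21.8% of all genes in either direction. DESeq2 called 2 lower, against 6.87% of all genes. These markers were highest in sgCon tumor 1 and sgTaz tumor 2, the tumors in which Dll1 was also highest. The 12 endothelial markers summed to 543, 597 and 805 CPM in sgCon and 460, 736 and 875 CPM in sgTaz tumors, with 0 called by DESeq2, and the 10 mural markers to 320, 496 and 564 and to 393, 480 and 656 CPM. None of these markers was at 0 in every tumor. What part the epithelial markers have in the lower levels of Jag2 and Dll1 was not tested.

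Relative to the markers of the cells known to carry them, no difference between the groups passed the test. The log2 ratio of Jag2 to the epithelial sum was -7.16 ± 0.229 in sgCon and -7.22 ± 0.478 in sgTaz tumors (SD, n = 5 each), a difference of -0.06 (two-sided exact permutation p = 0.849). With the mean of the log2 markers in place of their sum, the difference for Jag2 was 0.20. Over the endothelial sum, the difference was -0.06 for Notch4 (exact p = 0.603), -0.07 for Dll4 (exact p = 0.595), -0.13 for Notch1 (exact p = 0.516), -0.20 for Hey1 (exact p = 0.492) and -0.01 for Jag1 (exact p = 0.968). Within the groups, the correlations described below had a median of only 0.12 for Notch1 and -0.13 for Jag1 with the endothelial markers. The ratios of Notch1 and Jag1 to that sum thus say little about a level per carrying cell. For Notch3 over the mural sum it was 0.02 (exact p = 0.929), and 0.20 over the mean of the log2 markers. Adjusted over the 7 ratios, each of these exact p-values became 0.968. The median r was 0.31 for Notch3 with the mural and 0.49 for Jag2 with the epithelial markers, each below that with another list. No ratio was tested for Dll1, or for Jag1 over the epithelial markers.

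**Figure D4:**
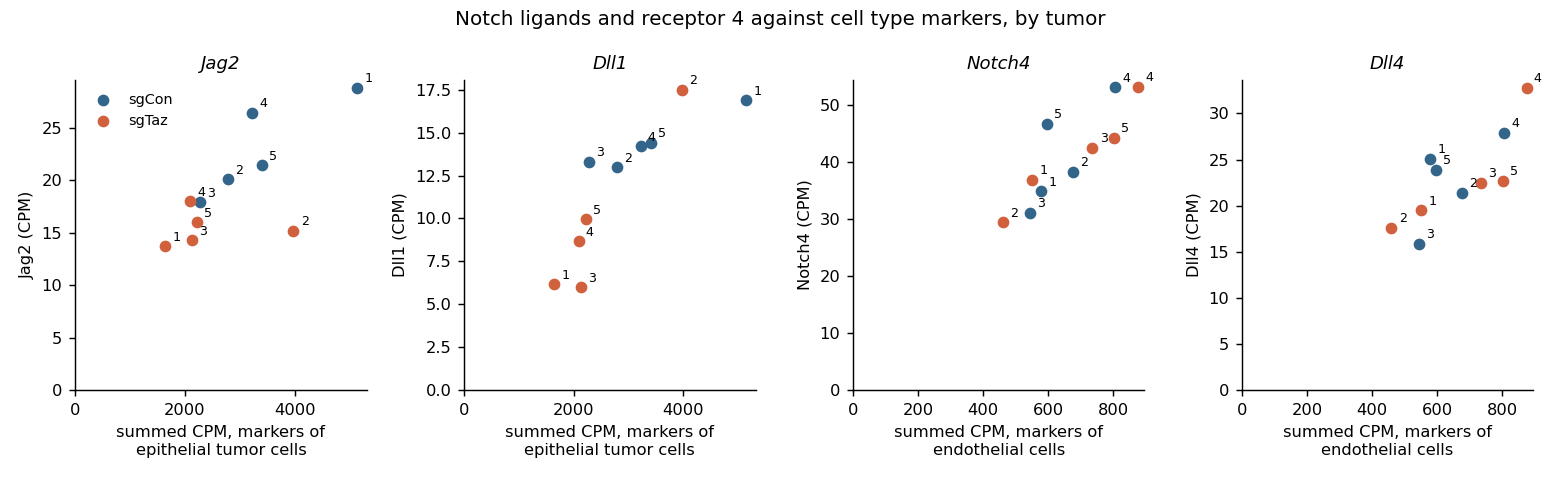
CPM of Jag2 and Dll1 (vertical axes) against the summed CPM of 10 epithelial markers, and of Notch4 and Dll4 against that of 12 endothelial markers, with a numbered point for each tumor. Dll1 and the epithelial sum are both high in sgCon tumor 1 and sgTaz tumor 2, Jag2 in sgTaz tumor 2 is low at a high epithelial sum, and Notch4 and Dll4 are highest in the tumors numbered 4 of both groups, where the endothelial sum is also highest.

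How the members varied from tumor to tumor within the groups was described by Pearson's r of log2 CPM over the 10 tumors after the group means were taken off. These points share library and depth, and no p is given. Notch4, Hey1 and Dll4 varied with the 12 endothelial markers (median r 0.81, 0.73 and 0.71) and with each other, at r 0.93 for Notch4 and Hey1, 0.86 for Notch4 and Dll4 and 0.68 for Dll4 and Hey1. Dll4 also varied with the 10 mural markers (median r 0.73). Jag1 and Dll1 varied with the epithelial markers (median r 0.76 for both) and with each other (r 0.68). Jag2 stood between these sets, with a median r of 0.49 for epithelial, 0.40 for endothelial and 0.60 for mural markers, and an r of 0.78 with Dll4. Notch1 varied with B cell and T cell markers (median r 0.63 for both) and Hes1 against them (-0.65 and -0.68). With markers of lymphatic endothelium and of lymph node stroma, the median r was 0.67 and 0.55 for Notch1 and -0.65 for Hes1 with both. Notch1 and Hes1 were themselves at r -0.60. Within their groups, sgCon tumor 3 and sgTaz tumor 5 were highest in the B cell sum (988 and 230 CPM) and in Notch1 (88.5 and 84.2 CPM). The same tumors were lowest in Hes1 (28.8 and 34.6 CPM). How far these r values rest on those tumors was not tested. Notch3 had a median r of 0.44 with the endothelial markers, 0.39 with the macrophage markers, 0.31 with the mural markers and -0.49 with the epithelial ones.

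Among 12930 protein-coding genes with a mean of at least 1 CPM, those most like Notch4 by this measure were Lyplal1 (r 0.978), Hspa12b (0.936) and Esam (0.933), of which Esam, an adhesion molecule of endothelial junctions, is also in the endothelial list. Those most like Dll4 were Flt4 (r 0.949), the receptor of lymphangiogenic VEGF that tip cells also carry, Abcc9 (0.943), a channel subunit of pericytes that is in the mural list, and Cttnbp2nl (0.941). For Hey1 they were Unc45b (0.945), Mcf2l (0.945) and Mipep (0.938). Nearest to Jag2 came Zfand5 (r 0.966), Map1lc3b (0.936), which encodes an autophagosome protein, and Dennd2c (0.936). Dll1 was closest to Ano4 (0.976), Zfp606 (0.966) and Cacfd1 (0.935), and Jag1 to Gemin8 (0.970), Ttll3 (0.969) and Tmem184a (0.966). With Notch1 the nearest were Wnt5b (0.936), Zfp169 (0.922) and Oma1 (0.918), with Notch2 Alg6 (0.957), Rdx (0.942) and Iars (0.938), and with Notch3 Msl3l2 (0.919), Slc25a15 (0.897) and Slc18a2 (0.880). Hes1 was nearest to Nono (0.963), Txn1 (0.956) and Tmed4 (0.955). These values rest on 10 points each and were picked from 12930 candidates.

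The rest of the pathway was covered by a list of 57 genes, of which 50 were tested, 4 were below the filter and 3 (Dll3, Hes2 and Hes3) were not matched in the table used. By edgeR 0 of the 50 had an adjusted p below 0.05, and at an unadjusted p below 0.05 there were 11 higher and 6 lower, against 21.8% of all genes tested. DESeq2 called 4 higher (Adam10, Ncstn, Ctbp2 and Tle2) and 2 lower (Psenen and Dtx1), and limma-voom with quality weights called these and Aph1b, 5 higher and 2 lower. Over all genes these tools called 6.87% and 10.4%. In 3 genes every sgTaz tumor was above, and in 1 below, every sgCon tumor, against 4.57% of all genes for both directions. The median log2 fold change of the 50 was 0.07. By DESeq2, 1 or 2 of the 50 were called without sgCon tumor 5 or without sgTaz tumor 1, 3 or 4, where its calls over all genes also went down from 1081 to 370, 531, 285 and 362. The edgeR log2 fold changes varied less with a tumor left out, from 0.26 to 0.33 for Ncstn, 0.39 to 0.50 for Ctbp2, 0.52 to 0.72 for Tle2 and -0.49 to -0.35 for Psenen.

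Of the 6 genes called by DESeq2, 3 act at the cleavage step. Adam10, the metalloprotease that makes the first cut after ligand binding, was at 284, 281, 310, 278 and 238 CPM in sgCon and at 414, 339, 397, 360 and 361 CPM in sgTaz tumors. The groups did not overlap, and the log2 fold change was 0.43 (SE 0.0847, edgeR adjusted p = 0.0824, DESeq2 adjusted p = 0.000942). DESeq2 called it with any 1 tumor left out. Adam10 is also expressed in macrophages, whose 9 markers all had a fitted log2 fold change above 0 (median 0.46). DESeq2 called 3 of them higher, against 6.87% of all genes. They summed to 851 to 1940 CPM in sgCon and 1610 to 2220 CPM in sgTaz tumors. Their part in the level of Adam10 was not tested.

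Of the gamma-secretase subunits, Ncstn, the substrate receptor, was at 91.6 to 104 CPM in sgCon and 106 to 129 CPM in sgTaz tumors (log2 fold change 0.29, SE 0.0745, edgeR adjusted p = 0.096, DESeq2 adjusted p = 0.0165). Psenen, the smallest subunit, went the other way, at 35.6 to 52.2 CPM in sgCon and 29.1 to 34.6 CPM in sgTaz tumors (log2 fold change -0.43, SE 0.103, edgeR adjusted p = 0.096, DESeq2 adjusted p = 0.0161). In both the groups did not overlap, and these subunits of a single complex had fold changes in opposite directions, without a call by edgeR. With a tumor left out, DESeq2 called Ncstn in 6 and Psenen in 7 of 10 fits. Psen2, a catalytic subunit, had a log2 fold change of -0.49 (SE 0.168, edgeR adjusted p = 0.14) without a call by DESeq2. Aph1b had a log2 fold change of 0.57 (limma-voom adjusted p = 0.028, DESeq2 adjusted p = 0.0599), and its reads may be shared with its close copy Aph1c. Adam17, the other metalloprotease, was at 0.16 (edgeR adjusted p = 0.506).

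Among the nuclear factors, Rbpj had a log2 fold change of 0.26 (SE 0.107, edgeR adjusted p = 0.195) and Maml3, a Mastermind coactivator, of 0.29 (SE 0.131, edgeR adjusted p = 0.222). The corepressors Ctbp2, at 30.9 to 43.2 CPM in sgCon and 46.3 to 60.2 CPM in sgTaz tumors, and Tle2, at 28.8 to 48.4 and 39.7 to 65.2 CPM, had log2 fold changes of 0.45 and 0.59 (edgeR adjusted p = 0.096 and 0.105, DESeq2 adjusted p = 0.0126 and 0.0252). Only Ctbp2 of this pair had groups that did not overlap. With a tumor left out, DESeq2 called Ctbp2 in 6 and Tle2 in 5 of 10 fits. Without a call by DESeq2, Tle1 and Itch, an E3 ligase that acts on Notch, had log2 fold changes of 0.36 and 0.25, and Tle4 one of -0.39.

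Of the other effectors, 3 were tested and 0 passed the test by edgeR, DESeq2 or limma-voom with quality weights, with 0 at an unadjusted p below 0.05 by edgeR. Nrarp, a feedback inhibitor, had a log2 fold change of 0.04 (SE 0.185, edgeR adjusted p = 0.919) and Heyl of -0.15 (SE 0.257, edgeR adjusted p = 0.761). Hes6, named after its values were seen, was at 22.1, 23.8, 30.7, 30.1 and 23.2 CPM in sgCon and at 21.7, 24.4, 21.5, 21.3 and 20.6 CPM in sgTaz tumors. As for Jag2, Dll1, Mfng, Tle4 and Dtx1, among others, 4 of 5 sgTaz tumors were below every sgCon tumor. At least 4 of 5 were so in 9.43% of all genes tested. The log2 fold change of Hes6 was -0.25 (SE 0.113, edgeR adjusted p = 0.233, DESeq2 adjusted p = 0.29). Hey2 had 1 to 14 counts per tumor, Hes5 0 to 17, Hes7 0 to 13 and the ligand gene Dlk1 0 to 2, all below the filter. Hes5 was at 0.0601 to 1.06 CPM in sgCon tumors and at 0 in sgTaz tumors except tumor 5, at 0.218 CPM.

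Dtx1, a Deltex E3 ligase of lymphocytes, had the largest fold change of the 50 genes: it was at 6.37, 15.5, 61.6, 2.22 and 37.5 CPM in sgCon and at 0.0636, 0.129, 0.321, 0.324 and 7.2 CPM in sgTaz tumors. The fitted log2 fold change of Dtx1 was -3.97 (SE 1.18, edgeR adjusted p = 0.114, DESeq2 adjusted p = 0.037), between -6.83 and -3.27 with each tumor left out, and DESeq2 called it in 3 of these 10 fits. It was highest in sgCon tumor 3 and sgTaz tumor 5, the tumors highest in B cell markers within their groups. The same tumors were highest within their groups in the summed markers of lymph node stroma (762 and 551 CPM) and lymphatic endothelium (350 and 129 CPM). All 9 B cell markers had fitted values below 0 (median -3.09), as did all 8 T cell markers (median -1.77). Mfng and Lfng, Fringe glycosyltransferases that tune the response to ligands and are expressed in lymphocytes, had log2 fold changes of -0.78 and -0.45 (edgeR adjusted p = 0.137 and 0.194), and the third Fringe, Rfng, of -0.02. The part of lymphoid cells, or of lymph node tissue, in these values was not tested.

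**Figure D5:**
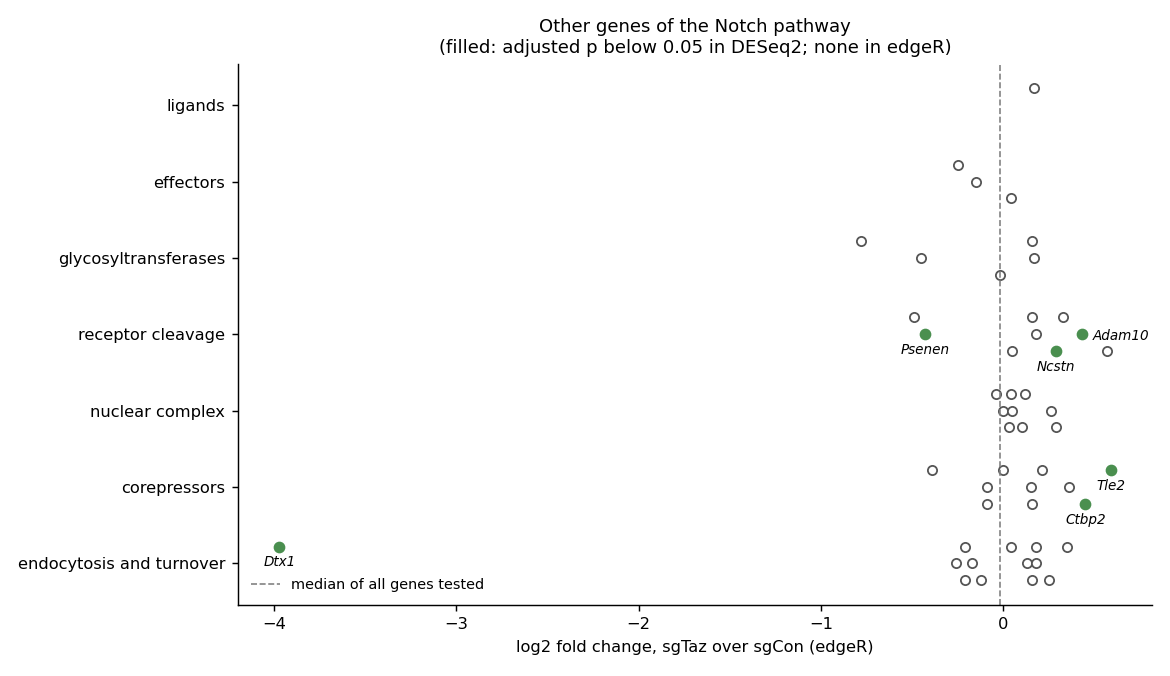
Log2 fold change by edgeR (horizontal axis, sgTaz over sgCon) of 50 other genes of the Notch pathway, in rows by role, with filled points for an adjusted p below 0.05 in DESeq2 and a dashed line at the median of all genes tested. Filled are Adam10, Ncstn, Ctbp2 and Tle2 above 0 and Psenen and Dtx1 below 0, and Dtx1 lies far from the rest at -3.97.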

How the data were processed

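Total RNA of 5 sgCon and 5 sgTaz whole tumors was sequenced by the authors, who mapped reads to mm10 with STAR in two-pass mode and GENCODE annotation, ran RSeQC, and obtained gene counts by featureCounts (Subread). CASAVA is also named in the submitters' processing notes. Deposited values are these raw counts of the authors for 17864 genes, without normalization. Tool versions, whether counting used the strand, and how genes were selected for the table are not given in the sources used here. In the table, 5 further columns match no sample and were not used.

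Columns were assigned to groups by name. Identifiers were matched to GENCODE M21 without their version (17860 of 17864), which gave names, positions and the exon union behind CPM per kilobase. Depth was 12185383 to 19595821 counts per tumor, and 3 counts are 1.53e-05% to 2.46e-05% of a tumor's total, a floor that covers counting error only. No pair of tumors of a group differed by less than sampling noise. Labels do not say that each tumor came from its own mouse, so p-values measure the spread between these samples.

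All genes were fitted in R 4.3.3 with edgeR 4.0.16 (TMM, filterByExpr by group, which kept 14816 genes, glmQLFTest, with p-values adjusted after Benjamini-Hochberg and a threshold of 0.05). DESeq2 1.42.0 was run on all 17864 genes with its own filtering (15731 with an adjusted p), and limma 3.58.1 as limma-voom with sample quality weights. Shares and ratios were tested with two-sided exact permutation tests in Python 3.11.15 (numpy 2.4.6, scipy 1.17.1, pandas 2.3.3, matplotlib 3.10.9). A log2 CPM used a prior count of 2. Scripts were tested on simulated data.

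The members, the gene and marker lists and the alternatives were chosen with earlier results of these data known. Named were all members, Wwtr1, the pathway genes with an unadjusted p below 0.05 by edgeR, 11 pathway genes whatever their values, those below the filter, and for each member the 3 genes with the highest r, except 2 pathway genes that are not reported here. Alternatives were the tools above, RLE and upper-quartile normalization, no filter, at least 10 counts in every tumor, the bias-adjusted deviance of edgeR, each tumor left out, the replicate number as a block, a GC and length correction (loess span 0.5), and both together. For the ratios, the mean of the log2 markers was tried, and for the shares the longest transcript in place of the exon union. DESeq2 with each tumor left out or with the block, limma-voom without weights, and the longest transcript for the order of levels were added after seeing the data.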

Additional observations from a re-analysis of the deposited data

Results flagged for a closer look

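In 5 of 50 groups of 5 tumors, where chance gives about 1 in 20 (2.5 here), a tumor lay apart from the others of its group by Dixon's criterion at the 95% level. Jag1 in sgCon tumor 3 had a log2 CPM of 5.46, with the other sgCon tumors between 6.07 and 6.26. Hey1 in sgTaz tumor 2 had a log2 CPM of 1.47, with the other sgTaz tumors between 2.63 and 2.89. The receptor share of Notch1 was 22.8% in sgCon tumor 3, against 16.8 to 18.3% in the other sgCon tumors. The ligand share of Dll1 in the same tumor was 18.2%, against 13.0 to 14.4%. The ligand share of Jag2 in sgTaz tumor 2 was 8.23%, against 10.2 to 10.8% in the other sgTaz tumors. Levels and shares come from the same genes, so these flags are not independent. In CPM, Dll1 in sgCon tumor 3 (13.3) and Jag2 in sgTaz tumor 2 (15.2) lay within the range of the other tumors of their group. Jag1, in the same ligand sum, had its lowest level of all in sgCon tumor 3 (44.0 CPM) and its highest in sgTaz tumor 2 (90.8 CPM). All 5 flags were in sgCon tumor 3 or sgTaz tumor 2. These are also the tumors with the most B cell markers among sgCon tumors (988 CPM) and the most epithelial markers among sgTaz tumors (3980 CPM), whose part in the values was not tested.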

How the results depend on the processing

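The number of Notch members called, 0 by edgeR, was 1 with DESeq2 and 2 with limma-voom with quality weights, and 0 under every other edgeR alternative and limma-voom without weights, which was added after seeing the data. Of the other pathway genes, 6 were called by DESeq2, 7 by limma-voom with quality weights and 0 to 1 by edgeR with a tumor left out. Wwtr1 passed the threshold with DESeq2 (log2 fold change -0.58) and limma-voom with quality weights (-0.59). By DESeq2 with a tumor left out, 0 to 2 members and 1 to 9 other pathway genes were called, against 285 to 1604 over all genes. Over all genes, edgeR called 1, DESeq2 1081, limma-voom with quality weights 1546 and without them 3, and with a tumor left out edgeR called 0 to 172. The cause of these differences between tools was not tested.

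The log2 fold changes of Jag2, Dll1 and Notch3 kept their direction under all 21 alternatives. Signs near 0 turned. With limma-voom with quality weights the values were 0.0133 for Notch1, 0.0369 for Notch2, -0.11 for Jag1, -0.0198 for Hes1 and 0.0286 for Hey1. Notch2 was also above 0 with DESeq2 (0.0171), RLE normalization (0.0129), no filter (0.0257), the replicate block (0.0031), the GC and length correction (0.00065), both together (0.0035) and limma-voom without weights (0.0034). Dll4 was at -0.017 by limma-voom without weights, and Hey1 at 0.0048 with block and correction. With each tumor left out the log2 fold change ran from -0.0427 to 0.0664 for Notch2, -0.0932 to 0.13 for Notch4, -0.0662 to 0.12 for Jag1, -0.15 to 0.0915 for Dll4, -0.0817 to 0.18 for Hes1 and -0.29 to 0.084 for Hey1. The difference in share, in percentage points, ran from -1.28 to 0.21 for Notch1, -0.73 to 1.45 for Notch2, -0.88 to 1.21 for Notch4, 0.172 to 1.14 for Notch3, 4.2 to 7.59 for Jag1, 0.429 to 4.96 for Dll4 (lowest without sgTaz tumor 4, highest without sgTaz tumor 2), -4.09 to -3.26 for Jag2 and -5.9 to -3.57 for Dll1, Jag2 and Dll1 with an adjusted exact p of 0.0317 without sgTaz tumor 2. The log2 ratio to markers ran from -0.0973 to 0.0194 for Notch4, -0.14 to 0.0025 for Dll4, -0.25 to 0.11 for Jag1, -0.11 to 0.13 for Notch3 and -0.15 to 0.14 for Jag2. With the mean of the log2 markers it was 0.0032 for Jag1, 0.20 for Jag2 and 0.197 for Notch3. With the longest transcript, the 8 share differences kept their direction, at -4.4 for Jag2 and -4.62 for Dll1.

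Same-numbered tumors of the groups deviated together with correlations of -0.15, -0.243, -0.049, 0.0932 and 0.221. Only for number 5 was the same-numbered tumor the best match. The labels give no pairing beyond the number, and these values cannot tell whether same-numbered tumors share a batch. With the replicate number as a block 0 members and 0 other pathway genes were called by edgeR, and 1 member and 5 other pathway genes (3 higher, 2 lower) by DESeq2. By edgeR the log2 fold change was -0.55 for Jag2 and -0.68 for Dll1.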
